A study of Mus musculus with 4 samples.

Results

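The clustered protocadherins are cell surface proteins encoded in 3 neighbouring gene clusters, alpha, beta and gamma, on mouse chromosome 18, and their transcripts were compared between *Tmpo* KO and *Tmpo* WT fibroblasts. A gene was a member if the RefSeq symbol of a transcript ID in the count files was that of an alpha, beta or gamma protocadherin, C-type genes included. This gave 57 of the 23732 genes with a symbol: 14 alpha, 22 beta, 12 gamma A, 6 gamma B and 3 gamma C genes, each with 1 ID. A further gene of the family, *Pcdhgb8*, had no ID under its current name and was not analysed here.

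Clustered protocadherins bind the same isoform on a neighbouring cell, and the set of isoforms on a neuron serves as an identity tag through which its own branches avoid each other. In the alpha and gamma clusters each variable first exon has its own promoter and is spliced to constant exons shared by the cluster, whereas beta genes are essentially single exons. Neurons choose most of these promoters at random with the help of CTCF, cohesin and DNA methylation, while the C-type genes at the ends of the alpha and gamma clusters are regulated differently.

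The cells were immortalized murine dermal fibroblasts (imMDFs) of genotype Lap2alpha +/+ (WT) or Lap2alpha -/- (KO). LAP2alpha is a nucleoplasmic product of *Tmpo* that binds A-type lamins. Each genotype had 2 RNA libraries, replicate 1 at passage 34 and replicate 2 at passage 42, all untreated and depleted of ribosomal RNA. Only 1 line of each genotype is described, and the effect of the genotype and that of the line cannot be told apart. The p-values measure only the spread between libraries. In the fit of genotype alone this spread includes the difference in passage, and the rest of it may be technical.

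The libraries held 12168433 (WT) and 15786136 (KO) reads given to transcripts at passage 34, and 15677378 and 19603812 at passage 42. The *Tmpo* transcript NM_011605 had 903 and 1324 reads in the WT and 6 in each KO library. Another *Tmpo* transcript, NM_001283048, had 9 and 16 reads in WT and 12 and 19 in KO, and the gene's other IDs had 0. Reads shared by transcripts of a gene were not assigned. Per the paper, the deletion of exon 4 removes LAP2alpha specifically, so the fall of 1 ID is not a loss of all products of *Tmpo*. Of 15 fibroblast markers, 13 reached 1 CPM (reads scaled to a common library total) in all 4 libraries, whereas *Pdgfrb* had no read under its ID. Of 14 neuron markers, 7 did so, with a summed level of 151 and 81.1 CPM in the WT and 108 and 54.0 CPM in the KO libraries at passages 34 and 42. The called markers of these lists were *Stmn2* and *Thy1*, both higher in KO. *Stmn2*, a neuronal tubulin-binding protein, had 12 and 20 reads in WT against 403 and 157 in KO. *Thy1*, a surface glycoprotein of fibroblasts and neurons, had 314 and 274 CPM in WT against 1286 and 768 CPM in KO. Most of the neuron sum came from *Tubb3*, a neuronal tubulin, with 130 and 56.7 CPM in WT and 62.4 and 32.4 CPM in KO. *Syt1* had no read in any library and *Snap25* at most 2. Summed markers of 5 further cell types were between 10.3 and 44.9 CPM in each library, and their part in the results was not tested. In these bulk libraries, fewer cells that express a gene and less RNA per cell cannot be told apart.

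In *Tmpo* KO cells 4 members rose, *Pcdhgb4*, *Pcdhga1* and *Pcdhga3* of the gamma cluster and *Pcdhb15* of the beta cluster, and 0 fell (edgeR's quasi-likelihood test, Benjamini-Hochberg adjusted over 13855 transcripts). Across all tested transcripts 1.51% were called higher and 1.24% lower, 2.75% in all. The median log2 fold change was highest over the gamma A and B members, 1.31, and lowest over the 3 gamma C members, -0.10. The test covered 44 members with at least 1 CPM in both libraries of a genotype, namely 3 alpha, 20 beta and all 21 gamma members. Of these, 37 passed in both genotypes, 6 only in KO and 1 only in WT. The 6 that passed through KO alone had to be high there, so counts over tested members are descriptions. The remaining 13, 11 alpha and 2 beta members, had at most 39 reads in any library, and *Pcdha4* had 1 read in all.

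**Figure D1:**
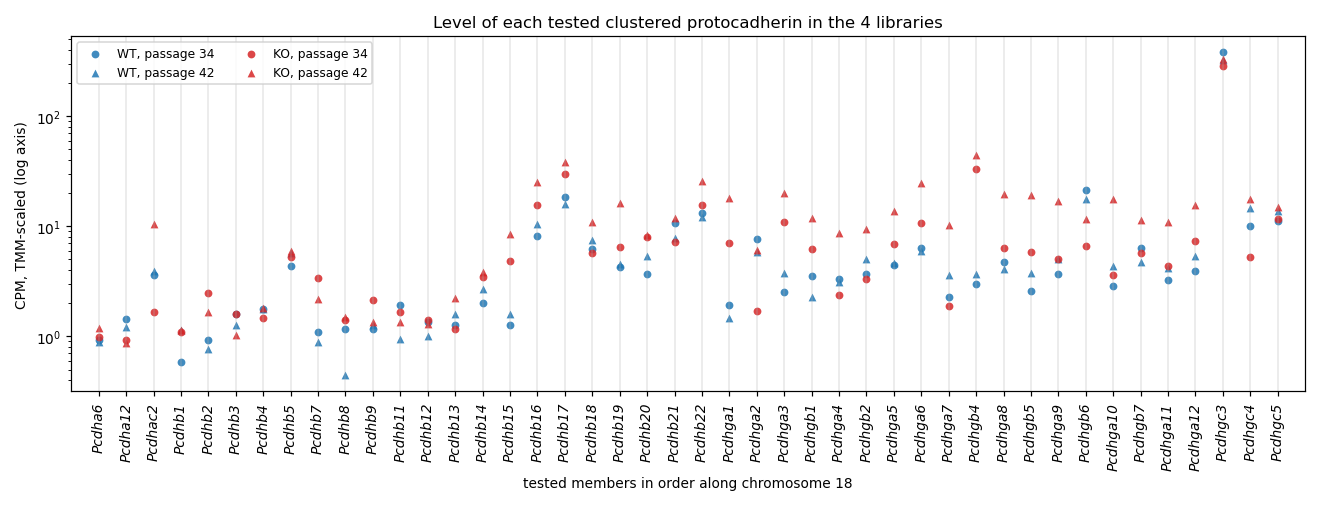
Level of the 44 tested members in the 4 libraries, in CPM scaled by TMM on a log axis, in order along chromosome 18. *Pcdhgc3* has at least 283 CPM in every library, the beta and gamma A and B members lie mostly under 40 CPM, and the KO library of passage 42 (red triangles) is highest for most gamma A and B members.

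*Pcdhgb4* (NM_033576), a gamma B gene in the middle of its cluster, had 36 reads in WT at passage 34 and 58 at passage 42, against 544 and 852 in KO, or 3.02, 3.69, 33.4 and 44.1 CPM. Both KO libraries were far above both WT libraries. The log2 fold change was 3.52 ± 0.31 (SE, n = 2 per genotype, adjusted p = 0.00020 by edgeR's quasi-likelihood test), an 11.5-fold difference. It was called in all 16 settings tried, with log2 fold changes between 3.18 and 3.69 and edgeR or DESeq2 adjusted p of at most 0.0040.

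*Pcdhga1* (NM_033584), the first gene of the gamma cluster, had 23 reads in each WT library against 114 and 350 in KO at passages 34 and 42. *Pcdhga3* (NM_033586) had 30 and 59 reads in WT against 179 and 385 in KO. *Pcdhb15* (NM_053140) had 15 and 25 reads in WT against 79 and 165 in KO. For all 3 genes the KO libraries were both above the WT libraries, and the KO library of passage 42 was the highest. The log2 fold changes were 2.90 ± 0.49, 2.29 ± 0.40 and 2.22 ± 0.43 (SE, adjusted p = 0.0094, 0.0105 and 0.0191 by edgeR's quasi-likelihood test).

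These 3 calls changed when a WT library was left out. A genotype with a library left out has 1 library, which the fit takes to vary like those of the other genotype, so its calls rest on that assumption. Without the WT library of passage 34, *Pcdhga3* and *Pcdhb15* were no longer called (edgeR adjusted p = 0.104 and 0.209), which left 2 members called higher, and 0.696% of all transcripts were called higher. Without that of passage 42, *Pcdhga1*, *Pcdhga3* and *Pcdhb15* lost the call (edgeR adjusted p = 0.151, 0.0741 and 0.215), which left *Pcdhgb4* alone, against 0.328% of all transcripts called higher. Without the KO library of passage 34, 20 members were called higher, against 3.61% of all transcripts. Without that of passage 42, 7 were called higher and 3 lower (*Pcdhga2*, *Pcdhgb6* and *Pcdhgc4*), against 4.13% and 4.39%.

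At an unadjusted p under 0.05, 21 members differed, 20 of them higher in KO, where 12.8% of all transcripts passed and 6.95% were higher. Besides the 4 called, these were 7 gamma A members (*Pcdhga5*, *Pcdhga6*, *Pcdhga8*, *Pcdhga9*, *Pcdhga10*, *Pcdhga11* and *Pcdhga12*) with log2 fold changes from 1.03 to 1.57 and *Pcdhgb1* and *Pcdhgb5* with 1.66 and 1.98, all higher in KO, and 7 beta members, also higher, that are described further on. *Pcdhgb6* was the 1 member that was lower. None of them passed the adjusted threshold in edgeR's quasi-likelihood test, where *Pcdhgb1* came nearest with an adjusted p of 0.072. With DESeq2, edgeR's exact test and its likelihood ratio test 10 members were called higher, against 2.18%, 2.43% and 2.52% of all transcripts, and DESeq2 also called *Pcdhgb6* lower, against 2.07%. DESeq2 gave an adjusted p to 38 of the 44. The added genes were *Pcdhgb1*, *Pcdhgb5*, *Pcdhga6*, *Pcdhga8*, *Pcdhb16* and *Pcdhb17* with each tool. With the replicate number, which marks the passage, as a block, edgeR's quasi-likelihood test called 16 members higher and *Pcdhgb6* lower, against 4.06% and 3.82% of all transcripts. The members gained as higher were the 6 just named, *Pcdhga5*, *Pcdhga9*, *Pcdhga10*, *Pcdhga12*, *Pcdhb7* and *Pcdhb19*.

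Of the 44 members, 18 had a log2 fold change above 1, and 13 of these were gamma A or B genes. Above 1 lay 4.3% of all transcripts and 33 of the 368 other tested transcripts of chromosome 18, or 8.97%. The median log2 fold change was 1.31 over the 18 gamma A and B members, 0.57 over the tested beta members, 0.27 over the 3 tested alpha members and -0.10 over the gamma C members. The other tested transcripts of chromosome 18 had 12 called higher (3.26%) and 1 lower (0.272%). At an unadjusted p under 0.05 in edgeR's quasi-likelihood test, 75 of these 368 were higher. Their median was 0.34, and that of all transcripts 0.02.

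The shift of the whole chromosome bears on how the members are read. Both KO libraries were above both WT libraries in 23 of the 44 members, against 21.9% of all transcripts but 56.2% of the other transcripts of chromosome 18. Both were below in 2, *Pcdhgb6* and *Pcdha12*, against 19.9% of all transcripts but 17 of the 368 other tested transcripts of chromosome 18. The log2 fold change was above 0 in 37 members, against 51.6% of all transcripts but 320 of the 368 others of chromosome 18. It was above the chromosome's median in 28 members, against 21% of all transcripts. Among the 368 others of chromosome 18 it was 184 by definition, since the median is theirs. When that median was taken off every transcript of chromosome 18, *Pcdhgb4*, *Pcdhga1*, *Pcdhga3* and *Pcdhb15* were still called higher (edgeR adjusted p = 0.00031, 0.018, 0.023 and 0.044), against 1.46% of all transcripts, and *Pcdhgb6* was called lower, against 1.26%.

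**Figure D2:**
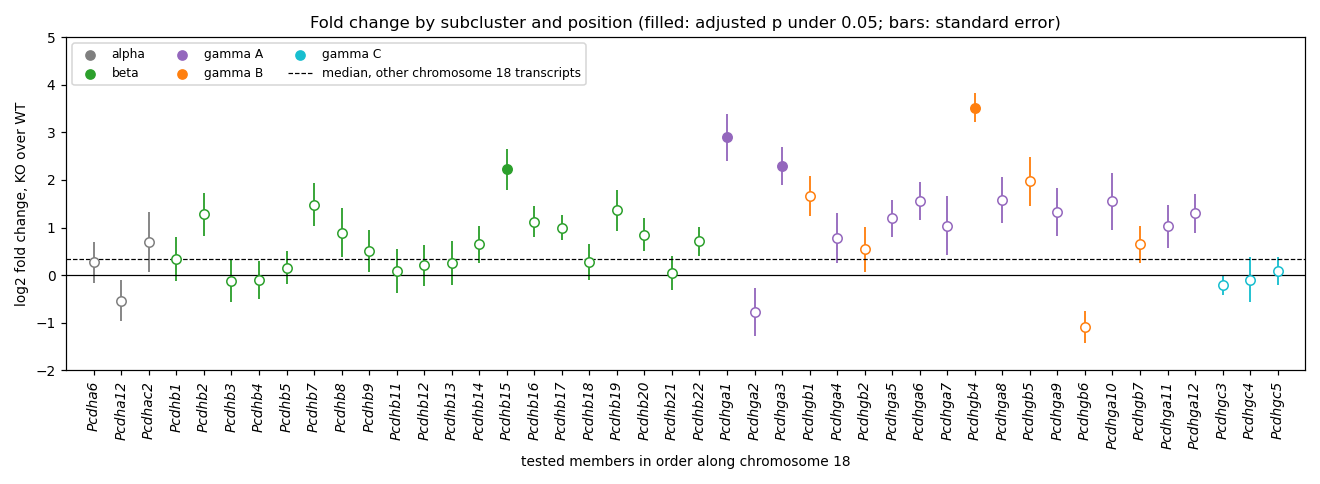
Log2 fold change of KO over WT for the 44 tested members with its standard error, in order along chromosome 18; filled points were called, and the dashed line is the median of the other chromosome 18 transcripts at 0.34. From *Pcdhb15* on, most beta members lie near or above the line, 16 of the 18 gamma A and B members lie above it, and the 3 gamma C members lie under it.

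*Pcdhgb6* (NM_033578) went the other way from its neighbours. It had 255 and 279 reads in WT and 108 and 226 in KO at passages 34 and 42, or 21.4, 17.7, 6.63 and 11.7 CPM. Both KO libraries were under both WT libraries. The log2 fold change was -1.09 ± 0.33 (SE), with an adjusted p of 0.144 in edgeR's quasi-likelihood test, and 0.0475 when the median of chromosome 18 was taken off, and it was called with the replicate block.

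Read shares within the gamma A and B genes do not depend on library scaling or on a shift common to the chromosome. *Pcdhgb6* supplied 24.4% of these reads in WT at passage 34 (95% Wilson interval 21.9 to 27.1) and 19.99% at passage 42 (17.97 to 22.2), more than any other member. In KO it supplied 5.11% (4.25 to 6.14) and 4.02% (3.54 to 4.57). *Pcdhgb4* supplied 3.45% (2.50 to 4.74) and 4.15% (3.23 to 5.33) in WT but 25.8% (23.9 to 27.7) and 15.2% (14.2 to 16.1) in KO, where it came first. The member that gave the most gamma A and B reads was therefore *Pcdhgb6* in both WT libraries and *Pcdhgb4* in both KO libraries. The intervals cover counting error only, and shares of reads are not shares of molecules, since the lengths of the variable exons were not used here.

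Near the start of the cluster the order of shares also differed. *Pcdhga2*, named here after its values were seen, gave 8.72% and 6.52% of gamma A and B reads in WT and 1.33% and 2.08% in KO. Its level was 7.63 and 5.79 CPM in WT and 1.72 and 6.05 CPM in KO, so at passage 42 its share was lower while its level was not. Its neighbours *Pcdhga1* and *Pcdhga3* gave 2.21% and 1.65%, and 2.88% and 4.23%, in WT at passages 34 and 42. In KO they gave 5.40% and 6.23%, and 8.48% and 6.85%. *Pcdhga6*, the gamma A member with the highest mean CPM, kept between 6.66% and 8.59% of the reads in all 4 libraries, while its level was 6.29 and 5.91 CPM in WT and 10.7 and 25.0 CPM in KO.

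**Figure D3:**
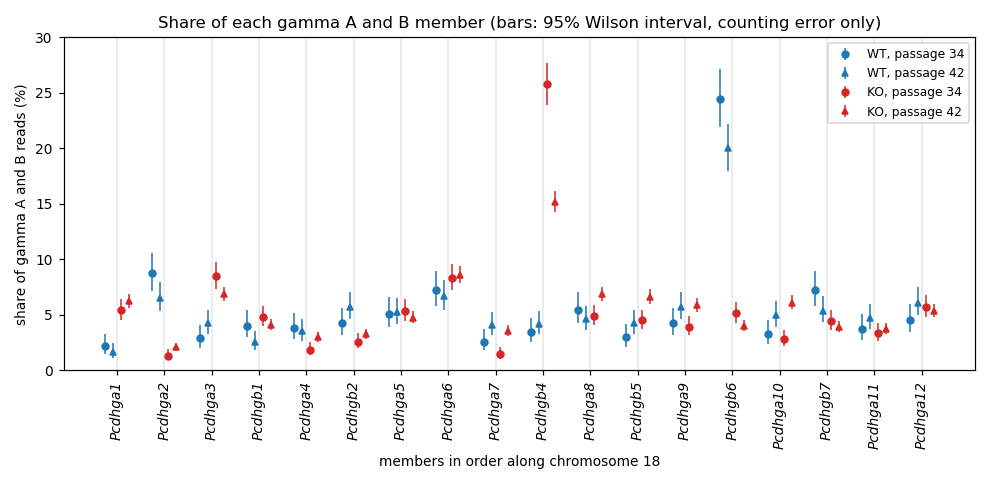
Share of the gamma A and B reads that each of the 18 members supplied in each library, in percent, in order along chromosome 18, with 95% Wilson intervals for counting error. *Pcdhgb6* leads in both WT libraries and *Pcdhgb4* in both KO libraries, while most other members stay under 10% in every library.

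The summed level of the gamma A and B members was 87.5 and 88.8 CPM in WT and 130 and 291 CPM in KO at passages 34 and 42. The WT libraries were alike and both KO libraries were higher, by 1.48-fold at passage 34 and 3.28-fold at passage 42. An exact permutation test gave a two-sided p of 0.333, the smallest that 2 against 2 libraries allow. Summed beta levels were 87.4, 86.4, 122 and 172 CPM in the order WT passage 34, WT passage 42, KO passage 34 and KO passage 42 (exact p = 0.333). Summed alpha levels were 14.1, 12.1, 15.7 and 19.2 CPM in the same order (exact p = 0.333).

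In the C-type gamma genes the genotypes overlapped. *Pcdhgc3* (NM_033581), which is found in many tissues outside neurons, had 381 and 327 CPM in WT and 283 and 331 CPM in KO at passages 34 and 42. The groups overlapped (log2 fold change -0.20 ± 0.21, SE, adjusted p = 0.799 by edgeR's quasi-likelihood test). *Pcdhgc3* gave 77.8% and 73.6% of all gamma reads in WT, and 65.9% and 50.6% in KO.

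*Pcdhgc4* (NM_033582), a C-type gene needed for the survival of certain interneurons, had 10.1 and 14.8 CPM in WT and 5.28 and 17.8 CPM in KO. *Pcdhgc5* (NM_033583) had 11.2 and 13.7 CPM in WT and 11.7 and 14.9 CPM in KO. In both genes the groups overlapped, with log2 fold changes of -0.10 ± 0.47 and 0.09 ± 0.30 (SE). The summed gamma C level was 402 and 355 CPM in WT and 300.2 and 364 CPM in KO (exact permutation test, two-sided p = 0.667).

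Fold changes varied along the beta cluster. *Pcdhb1* to *Pcdhb14*, of which 12 were tested, had a median log2 fold change of 0.30, and the 8 genes *Pcdhb15* to *Pcdhb22*, at the gamma end, one of 0.92, with values from 0.04 to 2.22. At an unadjusted p under 0.05, 6 of these 8 and 2 of the 12 were higher in KO. The 2 were *Pcdhb2*, which had 11 and 12 reads in WT and 40 and 32 in KO, and *Pcdhb7*, which had 13 and 14 in WT and 55 and 42 in KO, and their log2 fold changes were 1.28 and 1.48 (edgeR adjusted p = 0.219 and 0.140). Both are among the 6 members that passed the filter through KO alone, so that they had to be high there, and their values are a description. The division at *Pcdhb15* was chosen with its value known, and the difference between the stretches was not tested.

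The beta cluster lies at chr18:37424652-37681073 on the plus strand (NCBIM37/mm9), between the alpha genes at chr18:37089939-37347311 and the gamma genes at chr18:37833989-38001527. Beta exon models of 2350 to 7131 bases allowed levels per length. *Pcdhb17* was highest, with 5.29 ± 0.54 CPM per kilobase in WT and 10.5 ± 1.84 in KO (SD, n = 2), followed in WT by *Pcdhb22* with 4.15 ± 0.24 and 6.78 ± 2.31. The 2 genes did not overlap in WT, and in KO *Pcdhb17* was above *Pcdhb22* in both libraries. *Pcdhb17* gave between 18.6% and 24.7% of beta reads in each library, and came first in all 4.

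*Pcdhb17* had 221 and 252 reads in WT and 492 and 748 in KO. *Pcdhb16* had 98 and 165 in WT and 253 and 488 in KO. *Pcdhb19* had 51 and 71 in WT and 105 and 313 in KO. KO was above WT at both passages without overlap, with log2 fold changes of 1.00, 1.12 and 1.37 that did not pass the threshold (edgeR adjusted p = 0.076, 0.119 and 0.161) but did with the replicate block. *Pcdhb20* and *Pcdhb22* had log2 fold changes of 0.85 and 0.71 (edgeR adjusted p = 0.313 and 0.363). Beta genes resemble each other, and 0% to 11.99% of the 50-base windows of a beta gene (median 3.91%) also occurred in another one, so reads from those stretches may have been lost or misplaced. The likeness of gamma exons, which are also related in sequence, was not measured, and counts of close relatives there are uncertain to an unknown degree.

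Alpha genes had few reads in these fibroblasts. *Pcdhac2* (NM_001003672), a C-type alpha gene that serotonergic neurons use to space their axons, was the exception, with 3.61 and 3.94 CPM in WT and 1.66 and 10.6 CPM in KO at passages 34 and 42. KO was under WT at passage 34 and above it at passage 42 (log2 fold change 0.70 ± 0.63, SE, adjusted p = 0.76 by edgeR's quasi-likelihood test). It supplied 25.6% and 32.5% of the alpha reads in WT and 10.6% and 54.8% in KO, from totals of 168 to 372 reads. *Pcdhac1*, the other C-type alpha gene, had 9 and 14 reads in WT and 14 in each KO library, and was not tested.

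With its sign kept, KO minus WT was higher at passage 42 than at passage 34 in all 18 gamma A and B members. This held for 52.7% of all transcripts and for 210 of the 368 other tested transcripts of chromosome 18. In *Pcdhgb6* (-1.67 and -0.60) and *Pcdhga2* (-2.07 and 0.06) the genotypes therefore lay closer together at passage 42. With 1 library per genotype, KO minus WT on the log2 CPM scale had a median of 0.43 at passage 34 and 1.63 at passage 42 over these members. KO was above WT in 12 of them at passage 34 and in 17 at passage 42, against 50.8% and 50.7% of all transcripts. Of the 368 other tested transcripts of chromosome 18, KO was above WT in 291 and 309. The other transcripts of chromosome 18 had medians of 0.32 and 0.40. *Pcdhgb4* was nearly the same at both passages, 3.41 and 3.53, while *Pcdhga1* had 1.79 and 3.52, *Pcdhga8* 0.39 and 2.25, and *Pcdhga10* 0.33 and 1.99. No test was possible within a passage, and 1 library, KO at passage 42, carried the higher median: without it the median log2 fold change of the gamma A and B members was 0.32 in place of 1.31.

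**Figure D4:**
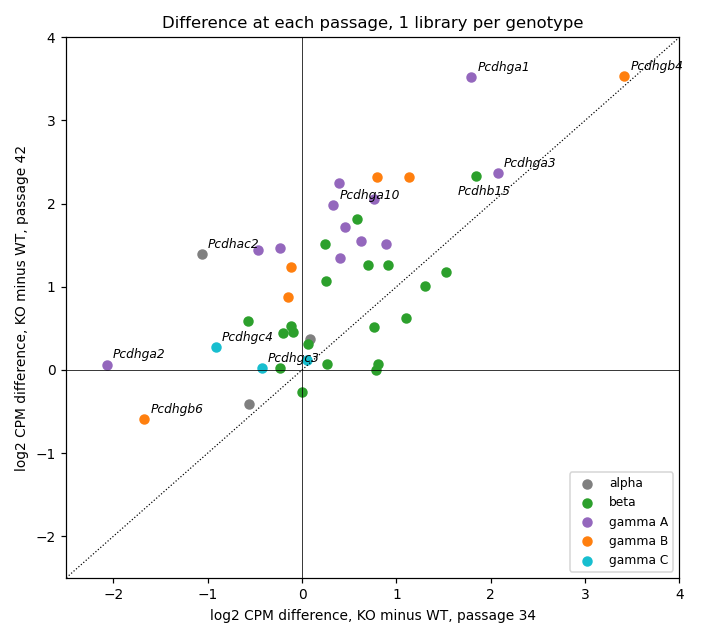
KO minus WT on the log2 CPM scale at passage 34 (horizontal) and passage 42 (vertical) for the 44 tested members, coloured by subcluster, with 1 library per genotype and passage; the dotted line marks equal differences. All 18 gamma A and B members lie above the line, and *Pcdhgb4* lies close to it at 3.41 and 3.53.

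Within the KO line all 18 gamma A and B members were higher at passage 42 than at passage 34, against 52.2% of all transcripts, with a median log2 difference of 1.32. Within the WT line 10 of the 18 were higher, against 49.3%, with a median of 0.17. In a fit of passage with genotype held, 5 members were higher at passage 42, against 1.77% of all transcripts, and 0 lower, against 0.541% (edgeR's quasi-likelihood test). They were *Pcdhga10*, *Pcdhgb5*, *Pcdhac2*, *Pcdhgc4* and *Pcdhga7*, the last named after its values were seen, with log2 fold changes of 1.54, 1.21, 1.41, 1.15 and 1.61 (edgeR adjusted p = 0.0048, 0.042, 0.028, 0.0235 and 0.0075). At an unadjusted p under 0.05, 13 members were higher and 0 lower, against 7.69% and 3.9% of all transcripts. When 1 CPM was required in all 4 libraries, edgeR's quasi-likelihood test called 0 of 37 members, against 0.855% of all transcripts higher, with 11 higher at an unadjusted p under 0.05, against 7.36%. DESeq2 left 42 of the 44 without an adjusted p through its filter on low counts, and 6 had an unadjusted p under 0.05, all higher, against 3.53%. That genotypes differ in their change with passage was not tested, since each combination had 1 library.

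The genes known to regulate the clusters were looked at in the same fit. Of 26 regulators, among them CTCF, the cohesin subunits and loaders and the enzymes of DNA and H3K9 methylation, 17 were tested and 0 were called by edgeR's quasi-likelihood test, its exact and likelihood ratio tests or DESeq2, nor did any have an unadjusted p under 0.05. With 2.75% of all transcripts called by edgeR's quasi-likelihood test, a count of 0 among 17 is near the background, and so are the counts of 0 in the 3 lists that follow. The smallest p-values belonged to the cohesin subunit *Smc3* (log2 fold change -0.43), *Smchd1*, a chromatin protein that represses the clusters (-0.36), and the histone demethylase *Kdm1a* (0.24). The median over the 17 was -0.08. Of the listed enzymes that methylate DNA or H3K9, only *Dnmt1* was tested. *Dnmt3b*, which methylates the promoters of the clusters in embryos, had no read in any library, and neither did *Setdb1* or *Ehmt2*. A gene with several overlapping transcripts can be at 0 in these counts although it is expressed, since reads shared by its transcripts were not assigned.

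Of 26 matched genes for partners and processing of the proteins, 15 were tested and 0 were called by the same 4 tests, with 1 at an unadjusted p under 0.05. It was *Marcksl1*, a substrate of protein kinase C (0.46, edgeR adjusted p = 0.364). *Prkca*, protein kinase C alpha, and *Adam10*, the protease that sheds the gamma ectodomain, had log2 fold changes of -0.39 and -0.29. Of 12 non-clustered protocadherins, which lie outside the clusters and are controlled one by one, 6 were tested and 0 were called by these tests, with 0 at an unadjusted p under 0.05. *Pcdh18*, *Pcdh7* and *Pcdh1* had 0.57, 0.43 and -0.51 (edgeR adjusted p = 0.420, 0.589 and 0.681).

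Genes on both sides of the clusters had a median log2 fold change of 0.30, near that of the chromosome. Of 24 flanking genes 23 were tested, and 0 were called by edgeR's quasi-likelihood test. At an unadjusted p under 0.05, 4 were higher in KO, against 6.95% of all transcripts. Of the 368 tested non-member transcripts of chromosome 18, which include these genes, 75 were higher at that threshold. *Spry4* was called by DESeq2 and by edgeR's exact and likelihood ratio tests. This gene, an inhibitor of receptor tyrosine kinase signalling, had 150 and 444 reads in WT and 704 and 1371 in KO at passages 34 and 42 (log2 fold change 1.48, edgeR adjusted p = 0.062). *Gnpda1*, an enzyme of amino sugar breakdown, and *Rell2* had 0.79 and 1.12 (edgeR adjusted p = 0.211 and 0.342).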

How the data were processed

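The deposited files hold raw counts. Per the labels and methods, the authors trimmed reads with cutadapt, mapped them to mm9 with TopHat2 version 2.0.9 and counted them per RefSeq transcript with htseq-count. Its strand setting: not given in the sources used here. Reads in exons shared by transcripts became ambiguous (12.1% to 13.4% of reads), so alpha and gamma counts come from variable exons. Reads outside transcripts (49.9% to 56.5%) were left out. Transcripts with at least 1 CPM in both libraries of a genotype were tested with edgeR 4.0.16 in R 4.3.3 (TMM, quasi-likelihood, Benjamini-Hochberg 0.05 over all transcripts), with DESeq2 1.42.0 as an alternative. CPM are TMM-scaled, and differences within a passage used a prior count of 2. Symbols and gene order came from a RefSeq table of GRCm38.p6, and positions from an NCBIM37 annotation. Members and lists were chosen with earlier results of these data known. Genes named were members called or with an unadjusted p under 0.05, C-type genes, the member with the highest mean CPM of each subcluster, and up to 3 genes of each related list with the smallest p. Other scalings, filters and tests, a replicate block and leaving out each library were tried. The script was tested on simulated data.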

Additional observations from a re-analysis of the deposited data

Results flagged for a closer look

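KO minus WT on the log2 CPM scale had opposite signs at passages 34 and 42 in 8 tested alpha and gamma members. The report either describes them or names them here after their values were seen. Tested beta members that also changed sign are given last, named in the same way, and untested members are left out. With 1 library per genotype and passage, the differences between the passages were not tested. *Pcdhac2* had -1.07 at passage 34 and 1.39 at passage 42. Among the gamma A and B members, *Pcdhga2* had -2.07 and 0.06, *Pcdhga4* -0.47 and 1.44, *Pcdhgb2* -0.15 and 0.88, *Pcdhga7* -0.24 and 1.47, and *Pcdhgb7* -0.12 and 1.24. The C-type genes *Pcdhgc3* and *Pcdhgc4* had -0.43 and 0.02, and -0.92 and 0.27. In each of these 8 the value at passage 42 was the higher one. Among the tested beta members that changed sign, this also held for *Pcdhb4*, *Pcdhb11*, *Pcdhb13*, *Pcdhb18* and *Pcdhb21*. It did not hold for *Pcdhb1*, with 0.79 at passage 34 and -0.007 at passage 42, or for *Pcdhb3*, with 0.002 and -0.27.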

How the results depend on the processing

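The number of called members was 4 with RLE size factors, library totals, TMM factors without chromosome 18, 1 CPM in all 4 libraries and counts summed per gene, and 5 with the chromosome 18 offset, which added *Pcdhgb6* as lower. It was 11 of 38 with DESeq2, 10 with edgeR's exact and 10 with its likelihood ratio test, 16 without a filter and 1 to 20 with a library left out. Over all transcripts 381 became 613 with the exact test, 638 with the likelihood ratio test, 740 without a filter (2.98%) and 109 to 1291 with a library left out. With the replicate block 17 members and 1092 transcripts (7.88%) were called. Libraries of the same number share a passage and nothing more is known to pair them (correlation of their deviations 0.175), so a call gained under the block is not read as a stronger effect. The median of the gamma A and B members was 0.32 to 1.85 with a library left out. For passage, 320 called transcripts became 48 with DESeq2 and 145 with 1 CPM in all 4 libraries, and the 5 members became 3 with RLE size factors, 3 with counts summed per gene and 0 with 1 CPM in all 4 libraries. DESeq2 gave no count there, since 42 of the 44 had no adjusted p. Of the flanking genes 1 was called with RLE size factors, DESeq2, the exact test, the likelihood ratio test, no filter and the replicate block, and 0 to 3 with a library left out. Of the non-clustered protocadherins 0 to 1 were called with a library left out. With a library left out, the log2 fold change was -1.23 to 1.47 for *Pcdhac2* and -0.056 to 2.27 for *Pcdhga10*, turning sign without KO at passage 42. It was -1.28 to 0.51 for *Pcdhgc4*, turning without WT at passage 42 or KO at passage 34, and -0.14 to 0.24 for *Pcdhgc5*, turning without WT at passage 34 or KO at passage 42 and, with the chromosome 18 offset, to -0.25. The causes were not tested. With 2 libraries per group, a difference that misses the threshold may still exist, and low counts limit the alpha members.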
